A study of Microtus ochrogaster and Microtus pennsylvanicus and Peromyscus californicus with 10 samples.

Results

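The features described here are 114 protein IDs that were abundant in 3 of 4 rodent brain tables and did not appear in the table of the 4th species. An ID was taken when it had at least 100 RPM, the read count scaled to the depth of its library, in exactly 3 tables and no entry in the other. The 114 came from 19750 IDs in the rodent tables and 60949 IDs in all 10 tables of the series. Since the RPM values and the listing chose the members, both are given as descriptions with no test. Members missing from the table of the prairie vole Microtus ochrogaster numbered 19, from the meadow vole M. pennsylvanicus 38, from the California mouse Peromyscus californicus 28 and from the deer mouse P. maniculatus 29.

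Fore- and midbrains of reproductive males were the source of RNA, with 3 animals of a species pooled into 1 library. No treatment, genetic change or age is given in the labels. M. ochrogaster and P. californicus are known from field and laboratory work as monogamous species, and M. pennsylvanicus and P. maniculatus as nonmonogamous relatives in the same genera. With 1 library per species there is no replicate check on any difference between species, and the animals in a pool cannot be separated. The RPM scale rested on 274693175 reads in M. ochrogaster and on 75649532 to 101971826 reads in the other 3 libraries, so M. ochrogaster stood apart in depth.

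All 4 tables name features by Ensembl protein IDs with the prefix ENSRNOP, which Ensembl uses for rat proteins. Brain RNA of 4 species was thus reported on the proteins of a rodent that was not sampled. In tables of this kind an ID stands for 1 protein product, and a gene with several products can have several IDs. RPM divides reads by library depth and not by transcript length, so the order of IDs within a library is an order of read shares and not of molecules. Gene names are not given beside the IDs, and 0 of 19750 rodent IDs were found in the gene table available here. The functions of the members, the labelled tissue and the cell types in it could therefore not be checked against marker genes.

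An ID that a table lacks has no value there, and its true level is unknown. No table listed an ID with a count of 0. The lowest listed count was 36 in M. ochrogaster, 7 in M. pennsylvanicus, 1 in P. californicus and 6 in P. maniculatus. A level of 100 RPM would have corresponded to 27469 reads in M. ochrogaster, 7565 in M. pennsylvanicus, 8496 in P. californicus and 10197 in P. maniculatus. These read numbers were at least 763 times the lowest listed count of the same table, so a member at the minimum level of the rule would have been far inside the listed range. In bulk tissue, fewer cells of a type and less RNA per cell cannot be told apart. For these IDs neither can be told apart from an ID to which no reads were assigned or one that a filter removed.

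The share of abundant IDs that went unlisted was small in every species. At least 100 RPM in all 3 other tables was reached by 981 IDs for M. ochrogaster, and 1.94% of them were the 19 members. For M. pennsylvanicus it was 4.43% of 857 IDs, for P. californicus 3.44% of 815 and for P. maniculatus 3.25% of 892. Over all 4 species, 1346 IDs reached 100 RPM in at least 3 tables, of which 733 reached it in all 4 and 8.47% were members. By genus, 57 members were missing from a vole table and 57 from a Peromyscus table. By mating system, 47 were missing from a monogamous and 67 from a nonmonogamous species. As shares, the monogamous species was lower in the voles (1.94% against 4.43%) and slightly higher in Peromyscus (3.44% against 3.25%). The unlisted shares over all IDs listed in the other 3 tables had the same order (2.24% against 12.8%, and 15.2% against 10.1%). These are counts and shares over 4 tables with no error estimate. Leaving out M. ochrogaster from the comparison, so that only 2 other tables had to reach 100 RPM, gave 190 IDs over the other 3 species.

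Listing followed abundance strongly in 3 tables and weakly in M. ochrogaster. Among IDs listed in the other 3 tables, 2.24% of 9590 were not listed for M. ochrogaster, against 12.8% of 10750 for M. pennsylvanicus, 15.2% of 11061 for P. californicus and 10.1% of 10429 for P. maniculatus. When the lowest RPM in the other 3 tables was under 1, the unlisted share was 36.2% for P. californicus, 25.9% for M. pennsylvanicus, 25.1% for P. maniculatus and 3.23% for M. ochrogaster. Between 10 and 100 RPM it was 4.25%, 7.75%, 4.43% and 1.51% in the same order. Between 100 and 1000 RPM it was 3.30%, 4.47%, 3.24% and 2.01%. For M. ochrogaster it was thus slightly higher there than in the bin below. At 1000 RPM and over, 2 of 26 IDs were unlisted for P. californicus, 1 of 30 for M. pennsylvanicus, 1 of 29 for P. maniculatus and 0 of 34 for M. ochrogaster. M. ochrogaster also had the most reads and the longest list, with 18547 IDs against 13167 to 14200 in the other tables, and the part of depth in these shares was not tested.

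**Figure D1:**
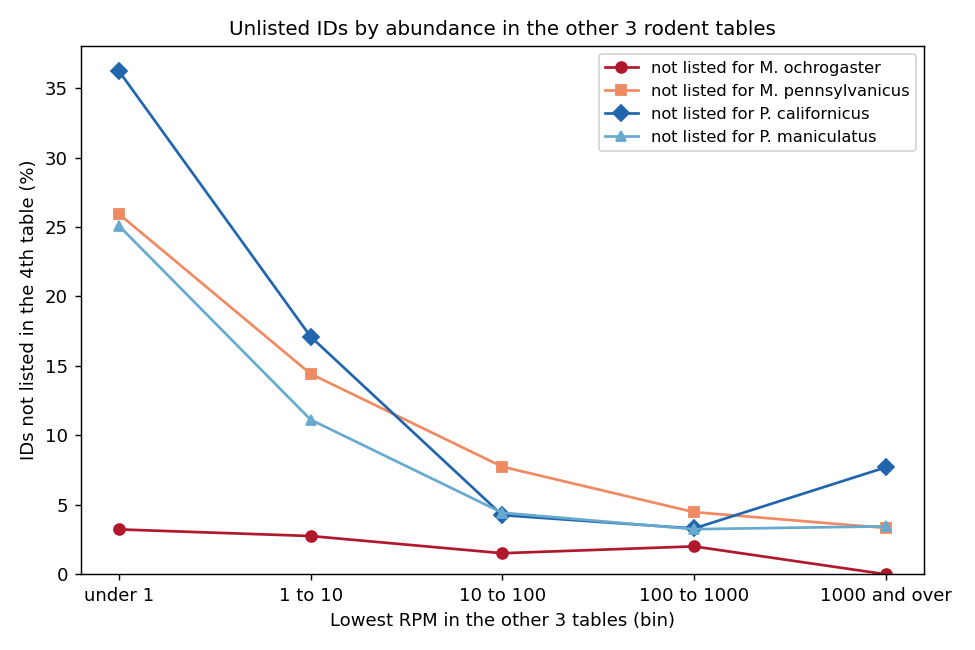
Percentage of IDs not listed in the named table (vertical axis) by the lowest RPM of the same ID in the other 3 rodent tables (horizontal axis, bins), with 1 line per species. The M. pennsylvanicus, P. californicus and P. maniculatus lines fall from 25.1% to 36.2% below 1 RPM to 3.24% to 4.47% at 100 to 1000 RPM, while the M. ochrogaster line starts at 3.23%. The last bin holds only 26 to 34 IDs per species.

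Most IDs that were abundant in 3 tables and fell short in the 4th were listed there at a lower level. Of the 613 IDs under 100 RPM or missing in the 4th table, 370 had 10 to 100 RPM there, 88 had 1 to 10, 41 had under 1 and 114 (18.6%) were the unlisted members. Unlisted IDs outnumbered those listed under 1 RPM in each species, with 19 against 10 in M. ochrogaster, 38 against 14 in M. pennsylvanicus, 28 against 4 in P. californicus and 29 against 13 in P. maniculatus. Except in M. ochrogaster they also outnumbered all IDs listed below 10 RPM, which were 14 under 1 RPM and 18 at 1 to 10 RPM in M. pennsylvanicus. The same numbers were 4 and 7 for P. californicus, and 13 and 15 for P. maniculatus. In M. ochrogaster the IDs at 1 to 10 RPM (48) were more numerous than the unlisted ones. The unlisted members were 34.1% of the 82 IDs short of 100 RPM in P. californicus, 30.6% of 124 in M. pennsylvanicus, 18.2% of 159 in P. maniculatus and 7.66% of 248 in M. ochrogaster.

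**Figure D2:**
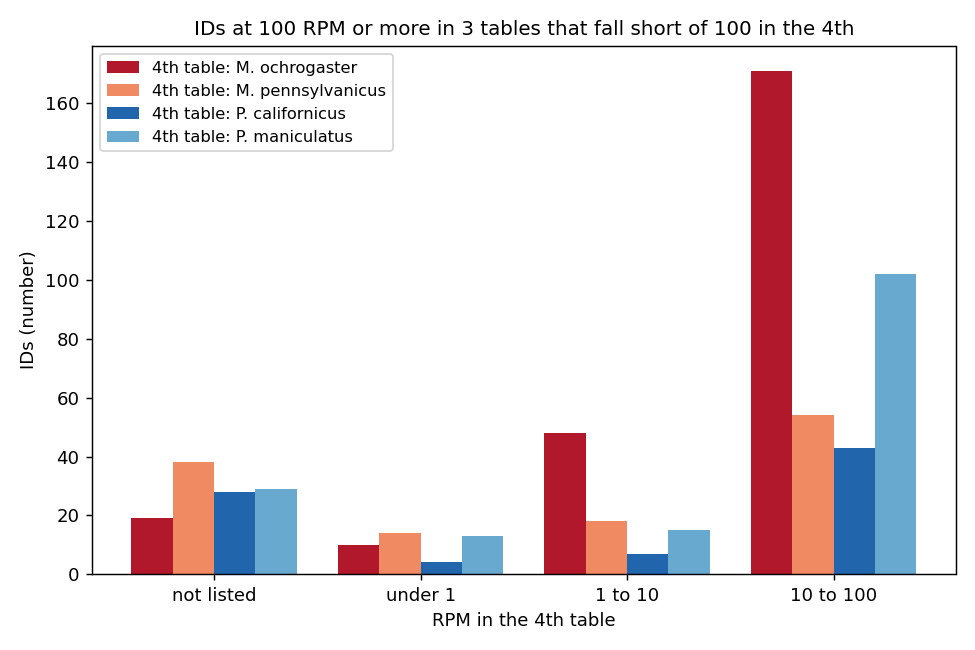
Number of IDs (bars) by their RPM in the 4th table, for IDs at 100 RPM or more in the other 3 rodent tables and short of 100 RPM in the 4th (the 733 IDs at 100 RPM or more in all 4 are not drawn), coloured by the species of the 4th table. The unlisted bars (19 to 38 IDs) stand above the bars for under 1 RPM (4 to 14 IDs) in all 4 species, and the bars for 10 to 100 RPM (43 to 171 IDs) are the tallest drawn in each colour.

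The members with the most reads were missing from P. californicus. ENSRNOP00000044573 had 67297 RPM in M. ochrogaster, 21081 in M. pennsylvanicus and 21067 in P. maniculatus. It was the first of all IDs in M. ochrogaster, where it took 6.73% of the reads (exact binomial 95% interval 6.727% to 6.733%, counting error only), the fifth in M. pennsylvanicus and the third in P. maniculatus. The P. californicus table has no entry for it. ENSRNOP00000043885 had 5605 RPM in M. ochrogaster, 13682 in M. pennsylvanicus and 5047 in P. maniculatus, and ranked 7, 8 and 13 there. It was highest in M. pennsylvanicus, whereas ENSRNOP00000044573 was highest in M. ochrogaster. Both were thus among the 10 IDs with the most reads in both voles, and no other member ranked so high in any library.

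The listed IDs of P. californicus leave 6.17% of the reads behind its RPM scale unaccounted for. This share was 5.86% in M. ochrogaster, which had the fewest members, 4.71% in M. pennsylvanicus and 4.36% in P. maniculatus. Which sequences hold these reads was not analysed here. The first ID of P. californicus, ENSRNOP00000039048, had 24369 RPM. A level such as the 21067 RPM of ENSRNOP00000044573 in its congener P. maniculatus would have put it near the top of the P. californicus table.

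The other 26 members missing from P. californicus were far less abundant. ENSRNOP00000023469 had 393 RPM in M. ochrogaster, 520 in M. pennsylvanicus and 573 in P. maniculatus. ENSRNOP00000011991 had 316, 397 and 351 RPM in the same order. ENSRNOP00000051216 had 309, 346 and 781 RPM. The first and the last of these were highest in P. maniculatus, the congener, by a small margin in one and by more than 2-fold over both voles in the other. ENSRNOP00000048877 had 256, 274 and 341 RPM. ENSRNOP00000066413 had 298, 241 and 244 RPM. The congener was the highest library for 10 of the 28 members and the lowest for 13. Counts of the highest and lowest library were not made over listed IDs, here or for the other species. Whether these counts are particular to the members is therefore not known. Of the 28, 18 had a lowest value under 200 RPM, down to ENSRNOP00000027215 with 152, 191 and 106 RPM. The most uneven was ENSRNOP00000051135, with 108 RPM in M. ochrogaster, 724 in M. pennsylvanicus and 217 in P. maniculatus. The most even was ENSRNOP00000065166, with 143, 138 and 153 RPM. Leaving out M. pennsylvanicus or P. maniculatus as a table that had to reach 100 RPM raised the count from 28 to 46 and 44.

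The members missing from M. pennsylvanicus were the most numerous and held the most uneven one. ENSRNOP00000049624 had 2912 RPM in M. ochrogaster, 2274 in P. californicus and 1385 in P. maniculatus, and ranked 13, 21 and 44 in these libraries. ENSRNOP00000007621 had 720, 778 and 604 RPM in the same order. These levels lay within a narrow range for the second ID, and the first was lowest in P. maniculatus. ENSRNOP00000040243 had 490 RPM in M. ochrogaster, 1940 in P. californicus and 805 in P. maniculatus. ENSRNOP00000060962 had 311, 1504 and 589 RPM. ENSRNOP00000019748 had 331, 731 and 993 RPM. All 3 had their lowest value in M. ochrogaster, the congener of the species that lacks them. ENSRNOP00000005601 had 483, 561 and 630 RPM, and ENSRNOP00000067467 had 399, 644 and 557 RPM, again with M. ochrogaster lowest.

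M. ochrogaster was the lowest library for 19 of the 38 members missing from M. pennsylvanicus and the highest for 14. The largest ratio of highest to lowest RPM among all 114 members was 15.8, in ENSRNOP00000053243 with 471 RPM in M. ochrogaster, 307 in P. californicus and 4849 in P. maniculatus, where it ranked 14. It was missing from M. pennsylvanicus and stood out in 1 Peromyscus library only. ENSRNOP00000025104, chosen after its values were seen, had 221, 729 and 1242 RPM, with both Peromyscus libraries above the vole. The most even of this set was ENSRNOP00000015102, with 244 RPM in M. ochrogaster, 251 in P. californicus and 255 in P. maniculatus. At the lower edge, ENSRNOP00000034041 had 139, 105 and 101 RPM. Without M. ochrogaster among the tables that had to reach 100 RPM the count rose from 38 to 104, and without P. maniculatus to 71.

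The members missing from M. ochrogaster, the deepest library, were the fewest. ENSRNOP00000015331 had 1195 RPM in M. pennsylvanicus, 1151 in P. californicus and 967 in P. maniculatus, and ranked 58, 67 and 74 there. ENSRNOP00000028881 had 965, 908 and 745 RPM in the same order. ENSRNOP00000022319 had 1029, 758 and 662 RPM. All 3 were highest in M. pennsylvanicus, the congener, and lowest in P. maniculatus. ENSRNOP00000030821 had 537 RPM in M. pennsylvanicus, 650 in P. californicus and 483 in P. maniculatus. ENSRNOP00000066809 had 423, 379 and 438 RPM. ENSRNOP00000017494 had 345, 412 and 312 RPM. The first and the last of these were highest in P. californicus and lowest in P. maniculatus, the other was highest in P. maniculatus, and no library was above the lowest by more than 1.5-fold. ENSRNOP00000002091 was nearly level, with 253, 268 and 276 RPM.

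M. pennsylvanicus was the highest library for 11 of the 19 members missing from M. ochrogaster and the lowest for 3. ENSRNOP00000020581 was the most uneven, with 418 RPM in M. pennsylvanicus, 141 in P. californicus and 106 in P. maniculatus. ENSRNOP00000027749 was the most even, with 125, 117 and 121 RPM. The lowest of the set was ENSRNOP00000022366, with 147, 100.4 and 144 RPM, just above the minimum in P. californicus. None of the 19 reached 1000 RPM in all 3 tables. Leaving out M. pennsylvanicus as a table that had to reach 100 RPM raised the count from 19 to 32.

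The members missing from P. maniculatus held 3 IDs of more than 800 RPM in every other library. ENSRNOP00000001066 had 1063 RPM in M. ochrogaster, 1010 in M. pennsylvanicus and 1534 in P. californicus. ENSRNOP00000016229 had 889, 937 and 831 RPM in the same order. ENSRNOP00000024347 had 812, 1091 and 1229 RPM. P. californicus, the congener, was the highest library for the first and the last of these and the lowest for the other. ENSRNOP00000040859 had 453 RPM in M. ochrogaster, 638 in M. pennsylvanicus and 589 in P. californicus. ENSRNOP00000045019 had 1016, 437 and 495 RPM. ENSRNOP00000052113 had 630, 435 and 540 RPM. In the last 2 M. ochrogaster was highest, as it was for 12 of the 29 members. ENSRNOP00000023554 had 811, 870 and 417 RPM, with both voles about 2-fold above P. californicus.

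P. californicus was the lowest library for 16 of the 29 members missing from its congener and the highest for 8. ENSRNOP00000013281 was the most uneven, with 604 RPM in M. ochrogaster, 858 in M. pennsylvanicus and 116 in P. californicus. ENSRNOP00000052715 was the most even, with 210, 206 and 200.3 RPM. The lowest member was ENSRNOP00000001282, with 130.3, 120 and 100.2 RPM. Without M. ochrogaster, M. pennsylvanicus or P. californicus among the tables that had to reach 100 RPM, the count rose from 29 to 44, 52 and 44.

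**Figure D3:**
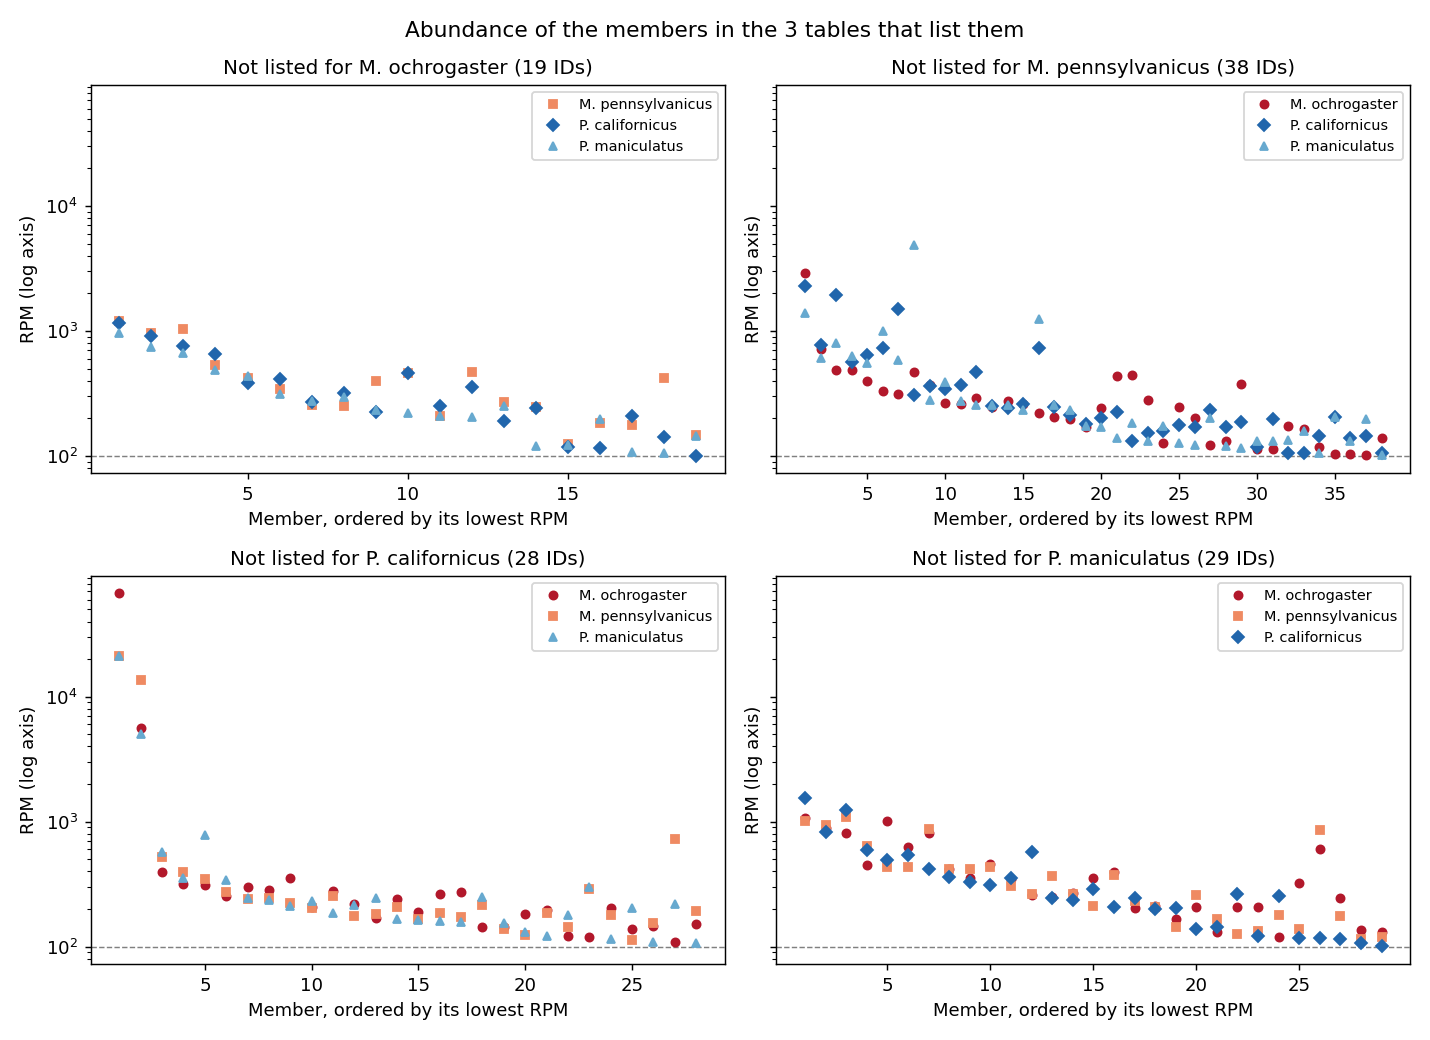
RPM (vertical log axis) of each member in the 3 libraries that list it, in 1 panel per species whose table lacks it, with members ordered from left to right by their lowest RPM and the 100 RPM minimum dashed. The 2 members at the left of the P. californicus panel (67297 and 13682 RPM at most) lie above every point of the other panels, and most members lie below 500 RPM in all their libraries.

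Taken by their lowest value, 57 of the 114 members had more than 200 RPM in all 3 libraries, 10 more than 500 and 4 more than 1000. The median of the lowest RPM was 222 for the IDs missing from M. ochrogaster, against 177 for the 962 IDs that passed the same minimum and were listed there. It was 171 against 184 for M. pennsylvanicus, 165 against 179 for P. californicus and 212 against 184 for P. maniculatus. Members were thus above the listed IDs in 2 species and below them in the other 2. Counting error was small, since every member had at least 8511 reads in each library that listed it and the widest exact binomial 95% interval of a member's RPM was 2.13% to either side.

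The 3 libraries that listed a member mostly gave it similar values. For 87 of 114 members the highest RPM was at most 2-fold above the lowest, and for 5 it was more than 4-fold above. The median ratio of highest to lowest was 1.43 for the members missing from M. ochrogaster and 1.41 for the IDs listed there. It was 1.58 against 1.48 for M. pennsylvanicus, 1.49 against 1.51 for P. californicus and 1.502 against 1.47 for P. maniculatus. A ratio of at most 2 was found in 78.9% of members and 84.4% of listed IDs for M. ochrogaster, in 73.7% and 80.3% for M. pennsylvanicus, in 82.1% and 79.0% for P. californicus and in 72.4% and 81.5% for P. maniculatus. In the libraries that held them, members and listed IDs of the same abundance rule therefore had median ratios close together, with the widest gap for M. pennsylvanicus. The share with a ratio of at most 2 had its widest gap for P. maniculatus (72.4% against 81.5%). Neither measure was tested.

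**Figure D4:**
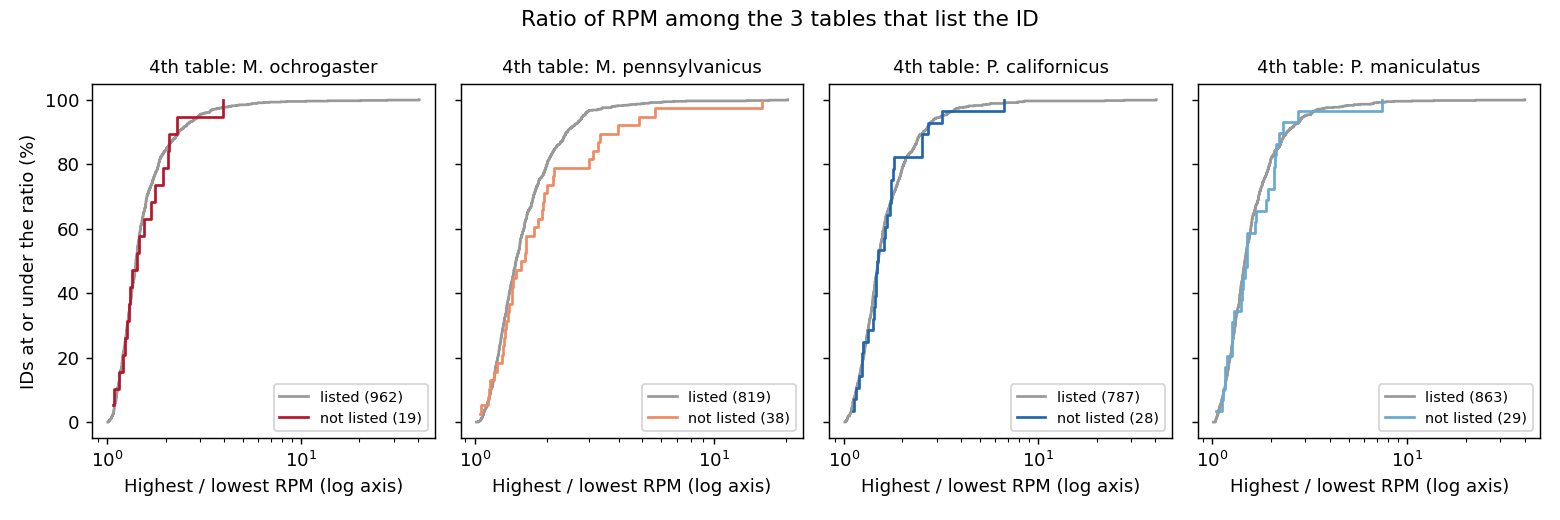
Cumulative percentage of IDs (vertical axis) by the ratio of the highest to the lowest RPM in the 3 tables that reach 100 RPM (horizontal log axis), for members (coloured) and for IDs listed in the 4th table (grey), in 1 panel per 4th table. Medians lie between 1.41 and 1.58 for all 8 curves, and the members missing from M. pennsylvanicus lie to the right of the grey curve in its upper part. At a ratio of 2 the gap is widest for P. maniculatus (72.4% of members against 81.5% of listed IDs).

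The congener of the lacking species showed no common direction. For the IDs missing from M. ochrogaster, M. pennsylvanicus was above the mean of the Peromyscus libraries in 14 of 19 (73.7%), with a median log2 ratio of 0.22. The same ratio had a median of 0.04 over the listed IDs, of which 53.8% were higher in M. pennsylvanicus. M. ochrogaster was higher in 15 of 38 members missing from M. pennsylvanicus (39.5%, against 50.4% of listed IDs), with a median log2 ratio of -0.14 against 0.01. P. maniculatus was higher in 11 of 28 missing from P. californicus (39.3%), which is close to the 39.1% of listed IDs (median -0.15 against -0.12). P. californicus was higher in 11 of 29 missing from P. maniculatus (37.9%, against 42.9% of listed IDs; median -0.17 against -0.06).

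The summed share of reads in the members was about 1% of a library except for P. californicus. The 19 IDs missing from M. ochrogaster held 0.810% of the reads in M. pennsylvanicus, and 0.725% and 0.609% in P. californicus and P. maniculatus. The 38 missing from M. pennsylvanicus held 1.26% in M. ochrogaster, 1.55% in P. californicus and 1.70% in P. maniculatus. For the 29 missing from P. maniculatus it was 1.17% in M. ochrogaster, 1.13% in M. pennsylvanicus and 1.07% in P. californicus. In contrast, the 28 missing from P. californicus held 7.86% of the reads in M. ochrogaster, 4.10% in M. pennsylvanicus and 3.23% in P. maniculatus. This rested on ENSRNOP00000044573 and ENSRNOP00000043885, since the other 26 held 0.570%, 0.625% and 0.616% in the same order.

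**Figure D5:**
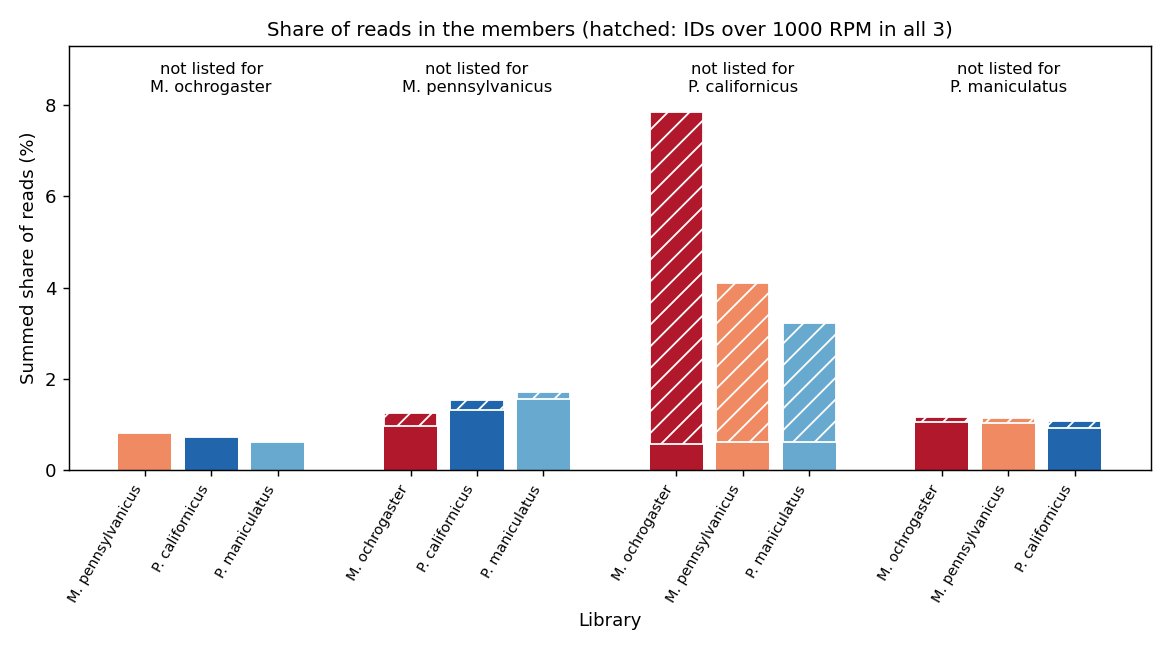
Share of reads (bars, percent of the reads behind the RPM scale) held by the members in each library that lists them, grouped by the species whose table lacks them, with members over 1000 RPM in all 3 libraries hatched. The bars of the IDs missing from P. californicus reach 3.23% to 7.86%, nearly all of it hatched, and the others 0.609% to 1.70%.

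IDs at the edges of the rule had much the same values as the members. ENSRNOP00000021381 was missing from M. ochrogaster and fell just short of the minimum in P. maniculatus, with 99.2 RPM. ENSRNOP00000015840, missing from M. pennsylvanicus, had 99.3 RPM in P. maniculatus, and ENSRNOP00000059003, missing from P. californicus, had 98.6 RPM in M. ochrogaster. ENSRNOP00000063652, missing from P. maniculatus, had 509 RPM in M. pennsylvanicus but only 98.0 in M. ochrogaster. On the other edge were IDs that the 4th table did list at a few reads. ENSRNOP00000050017 had 9 reads (0.106 RPM) in P. californicus and 195 to 467 RPM elsewhere. ENSRNOP00000017102 had 13 reads (0.172 RPM) in M. pennsylvanicus and 195 to 323 RPM elsewhere. ENSRNOP00000004416 had 14 reads (0.137 RPM) in P. maniculatus and 105 to 121 RPM in the others. ENSRNOP00000026576 had 103 reads (0.375 RPM) in M. ochrogaster and 131 to 260 RPM in the others. The last 4 are low in 1 library by a measured value, which the members are not.

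The reverse case, an ID at 100 RPM or more in 1 table and missing from the other 3, was rarer than membership in every species. It asks for 3 absences where membership asks for 1, so the 2 shares are not alike. For the species other than M. ochrogaster, it also needs absence from the M. ochrogaster table. That table lacked 2.24% of the IDs listed in the other 3, against 10.1% to 15.2% for the other species. The reverse case applied to 13 IDs of M. ochrogaster (0.728% of its 1786 IDs at this level), 3 of M. pennsylvanicus (0.174% of 1726), 2 of P. californicus (0.0954% of 2096) and 6 of P. maniculatus (0.322% of 1861). The highest was ENSRNOP00000040092, with 798 RPM in P. maniculatus. ENSRNOP00000055266 followed with 527 RPM in M. ochrogaster. In P. californicus, which lacked the members with the most reads, the IDs found there alone were ENSRNOP00000025093 with 156 RPM and ENSRNOP00000011467 with 143 RPM. Both were far below the levels of ENSRNOP00000044573 and ENSRNOP00000043885 in the other libraries. This covers only IDs missing from the other 3 tables. Whether P. californicus reads were counted under an ID that another table also lists was not tested.

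Pairs of tables could also lack an abundant ID together. At 100 RPM or more in both voles and missing from both Peromyscus tables were 8 of 1091 IDs, and 7 of 1327 showed the reverse. Pairs that cross the genera gave 12 of 1126 (high in M. ochrogaster and P. californicus), 8 of 1002 (M. ochrogaster and P. maniculatus), 1 of 1229 (M. pennsylvanicus and P. californicus) and 0 of 1133 (M. pennsylvanicus and P. maniculatus). The shares were largest for pairs with M. ochrogaster on the high side. They were 1.07% with P. californicus, 0.798% with P. maniculatus and 0.733% with M. pennsylvanicus, against 0.528% for the Peromyscus pair. The monogamous pair, M. ochrogaster and P. californicus, thus led the next by few IDs (12 against 8). The nonmonogamous pair, M. pennsylvanicus and P. maniculatus, had 0 IDs, and M. pennsylvanicus with P. californicus had 1. M. ochrogaster lists the most IDs, and pairs in which it lacked the ID together with a Peromyscus species held 1 and 0 IDs. The pair in which it lacked the ID together with M. pennsylvanicus held 7. The part of list length in this order was not tested.

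The numbers within the IDs gave a last description that the rule did not use. A listed ID within 5 numbers of the member was present in the lacking table for 18 of 19 members in M. ochrogaster (94.7%, against 94.9% of listed IDs), 34 of 38 in M. pennsylvanicus (89.5% against 89.5%), 23 of 28 in P. californicus (82.1% against 88.3%) and 26 of 29 in P. maniculatus (89.7% against 89.3%). A neighbour at 100 RPM or more was present for 6, 11, 4 and 7 of these members. In P. californicus that was 14.3% of members against 28.1% of listed IDs, and in the other 3 species 24.1% to 31.6% against 24.8% to 27.1%. ID numbers of 50000 and above made up 10.5% of members in M. ochrogaster, 23.7% in M. pennsylvanicus, 28.6% in P. californicus and 17.2% in P. maniculatus, against 19.6% to 21.1% of listed IDs. No member had another member missing from the same table within 5 numbers, a count over the 19 to 38 members of each table that does not cover the less abundant missing IDs.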

How the data were processed

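The authors deposited 1 table per library, with raw counts and RPM for each protein ID, per the file headers. The deposited counts are whole numbers without normalization. In each table the authors' RPM equals the count divided by 1 constant, taken here as the reads behind the RPM scale. The submitters' processing notes name Trimmomatic, BWA and SAMtools. Neither versions nor reference sequences, nor how reads shared by similar proteins were assigned, are stated in the sources used here, so such reads may have been counted under 1 ID or another.

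Members were found in the 4 rodent tables with pandas 2.3.3 in Python 3.11.15, a search tested on simulated tables with IDs removed at known places. The simulated tables held only IDs listed in all 4 rodent tables. They therefore checked the code of the search and not the unlisted IDs of the real tables. The other 6 tables share 0 of the rodent IDs and were used only to count IDs. No test between species was made, because each has 1 library. Intervals are exact binomial (Clopper-Pearson, 95%, scipy 1.17.1) and cover counting error only, since reads without molecular identifiers are not independent molecules. Members, lists and comparisons were chosen with earlier results of these data known, and the pairs of tables were added after the data were seen.

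Named IDs are the 7 members per species with the highest lowest RPM, those at the edges of the rule, the most and the least even member per species, and members among the 10 highest of a library. Alternatives were minimums of 50 and 200 RPM, CPM of listed counts, TMM factors (edgeR 4.0.16, R 4.3.3) or DESeq2 1.42.0 size factors over IDs listed in all 4 tables, 2 other definitions of a missing ID, and each library left out in turn.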

Additional observations from a re-analysis of the deposited data

How the results depend on the processing

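The number of members depended on the minimum level. At 50 RPM it was 33 for M. ochrogaster, 105 for M. pennsylvanicus, 61 for P. californicus, 60 for P. maniculatus and 259 in all, and at 200 RPM it was 12, 17, 10, 18 and 57, so that M. pennsylvanicus did not have the most members at 200 RPM. Counting IDs listed under 1 RPM as missing gave 29 for M. ochrogaster and 155 in all. With CPM of listed counts, TMM and DESeq2 size factors in place of RPM, the total was 127, 124 and 94 against 114, and each species stayed within 1.5-fold of its main count. A common floor of 0.131 RPM in all tables gave 115. Leaving out each of the other libraries in turn asks less of an ID and can only add members: it gave 20 to 32 for M. ochrogaster, 52 to 104 for M. pennsylvanicus, 42 to 46 for P. californicus and 44 to 52 for P. maniculatus, and 116 to 190 in all over the 3 species left. M. ochrogaster had the fewest members under these alternatives, except at 200 RPM, where P. californicus had 10.

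No paired analysis was possible because each species has 1 library and no result comes from a test. Depth limits no member's own value. Whether an unlisted ID was at 0, was removed by a filter or had no matching sequence assigned in that species cannot be told.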
